A study of Mus musculus with 2 samples.

Results

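The genes described here are the ligands and receptors of the tumour necrosis factor (TNF) superfamily in whole mouse kidney. They were chosen by symbol, as the genes whose names start with Tnfsf or Tnfrsf, with 1 symbol left out, and the genes Tnf, Lta, Ltb, Ltbr, Fas, Fasl, Cd40, Cd40lg, Cd27, Cd70, Ngfr and Relt. This gave 34 of 20002 genes, of which 12 were counted as ligands and 22 as receptors. Tnf, Cd40lg, Cd70 and Relt were not analysed here. Ligands of this superfamily act mostly as trimers on the cell surface or after shedding, and bind receptors with cysteine-rich repeats in their extracellular part. Receptors with a death domain can recruit caspase-8 through FADD, while others bind TRAF adaptors and activate NF-κB and JNK, and decoy receptors bind a ligand without passing on a signal. In the kidney the family is best known from tubular cell death, from inflammation after injury and from the organization of lymphoid tissue.

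RNA-seq was available for 2 libraries of kidney RNA from C57BL/6J mice, 1 from a control group and 1 from a Regnase-2 (Reg-2) CKO group. GEO's labels describe the CKO as a conditional knockout in proximal tubules, whereas the methods describe AAV9 with shRNA against Regnase-2, given by tail vein at 11 weeks of age, which is meant to knock the gene down and does not delete it. AAV9 is said to transduce proximal tubules preferentially, and no Cre driver is named. The control mice received AAV9 with control shRNA by one description and an empty vector by another, and neither group had a further treatment. Age at harvest is given as 14 weeks for the RNA-seq and as 16 weeks, 5 weeks after injection, for the AAV9 mice. Sex and the number of mice behind each library are not given in the sources used here. The deposited values are normalized counts, from which a constant floor, inferred from the minimum of each column, was subtracted. They then summed to 38851231 for the control and 43588721 for the CKO. They are called reads below, which is also an inference, and the counting intervals rest on it. Before ratios were taken, CKO reads were scaled by 0.667, the median gene ratio of control to CKO. With 1 library per group no difference has a replicate check, and the 95% Clopper-Pearson intervals given with ratios cover counting error only.

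Zc3h12b, the gene of Regnase-2 and the target of the shRNA, had 47 control reads and 59 CKO reads. Its log2 ratio was -0.25, with an interval from -0.83 to 0.33, and it changed sign to 0.16 when library totals were made equal. With the values as deposited it was 0.42, above that interval. The sign thus depended on the scaling, and under the scaling used a difference in the targeted mRNA was not detectable with so few reads.

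After scaling, most TNF superfamily genes had more reads in the CKO library, and the 3 with an interval below 1 were among the most abundant. Of the 34 members, 31 had at least 10 scaled reads in 1 library, and 13 of these were at least 2-fold higher in the CKO library, beside 13.4% of the 17469 genes that passed the same filter. None of the 31 was at least 2-fold lower, beside 5.35% of all genes. However, 6 members, Tnfrsf13b, Tnfrsf9, Tnfrsf18, Lta, Tnfrsf19 and Tnfsf13os, passed only through the CKO library, where they had more scaled reads. The intervals of Lta, which is among the 13, and of Tnfrsf19 and Tnfsf13os held a ratio of 1. Over all 34 members the number at least 2-fold higher was also 13 (38.2%), beside 12.5% of 20002 genes, and among the 25 members with 10 scaled reads in both libraries it was 9, beside 10.7%. The median log2 ratio was 0.78 over the 34 members and 0.93 over the 31, while the median of all genes that passed was 0.022. When library totals were made equal the median of all genes moved by 0.42 and 20 members were at least 2-fold higher, beside 21.9% of all genes, whose split of higher to lower calls went from 2334 and 934 to 3870 and 437. The deposited values, taken as they are, moved the median of all genes by 0.57 and put 18 members at least 2-fold higher, beside 20.5% of all genes, with a split over all genes of 3574 and 131. The median of the members that passed lay above that of all genes by 0.91 under the scaling used, and by 0.47 with the deposited values.

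Counting error left the direction of most members fixed under the scaling used. The interval of the ratio lay above 1 for 20 of the 31 members, beside 34.7% of all genes, and below 1 for 3, beside 33.6%. Those 3 were Ltbr, Tnfrsf21 and Tnfsf10, and each of them had a positive log2 ratio with the values as deposited. The share of genes at least 2-fold higher fell with abundance over the whole table. It was 27.6% for genes with a mean of 10 to 100 scaled reads, 12.4% from 100 to 1000 and 2.83% from 1000 upward. In the same ranges 7 of 15, 4 of 9 and 1 of 5 members were at least 2-fold higher, and Lta and Tnfsf13os, which also passed, had a mean below 10. By role, 4 of 12 ligands and 9 of 22 receptors were at least 2-fold higher, with medians over all of them of 0.52 and 0.90, and the difference was not tested. The ligands include the readthrough gene Tnfsfm13 and the noncoding gene Tnfsf13os.

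**Figure D1:**
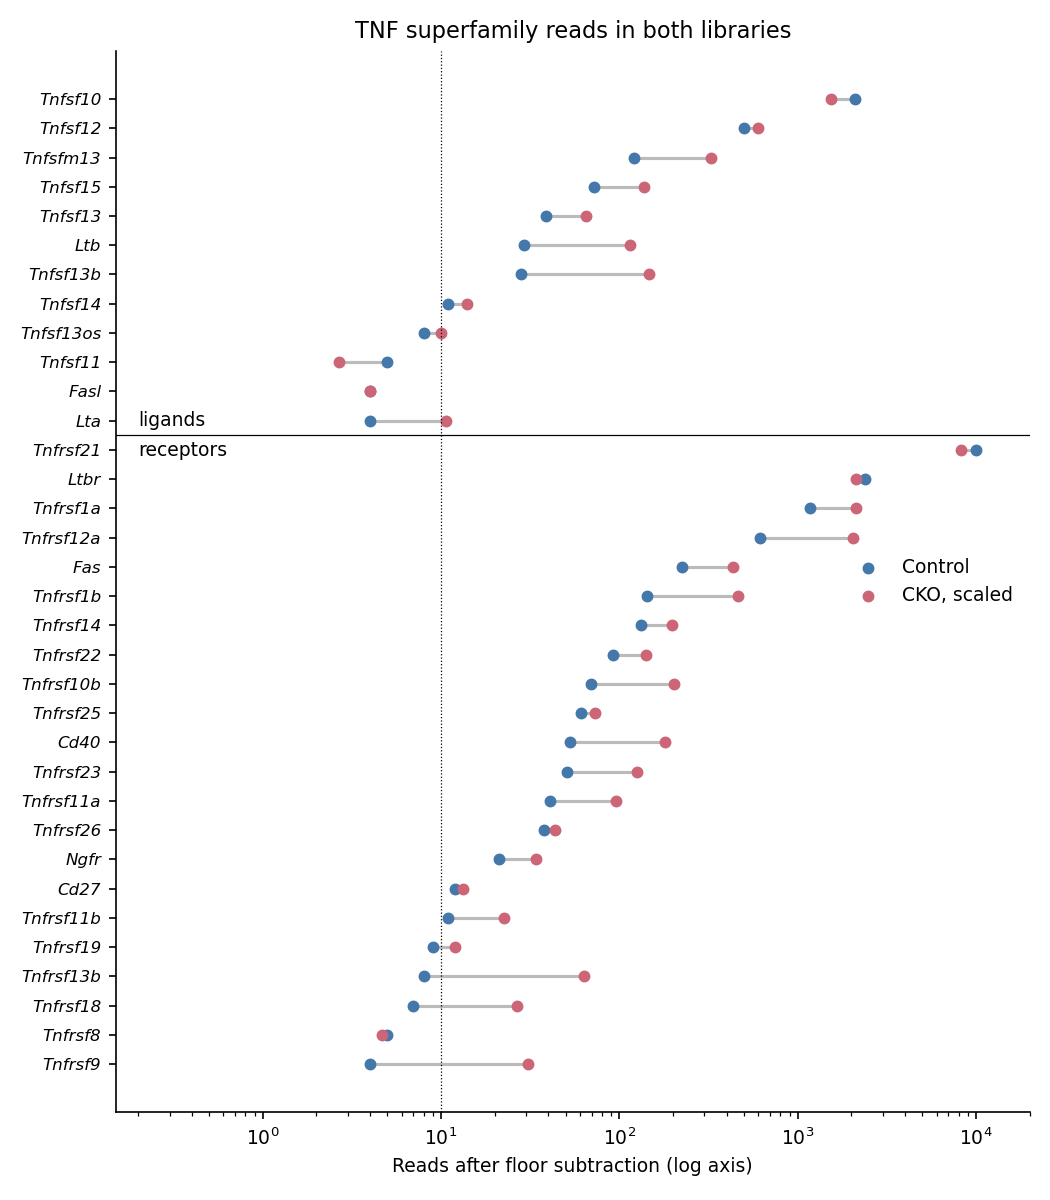
Reads of the 34 TNF superfamily genes after floor subtraction on a log axis, in the control library (blue) and in the CKO library after scaling (red), ligands above the line and receptors below. The dotted line marks 10 scaled reads, and Tnfrsf21, with 10053 control reads, lies furthest right.

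Levels were compared between genes as reads per kilobase of the longest GENCODE M21 transcript, which 33 of the 34 members had. Tnfrsf21, the death receptor 6 gene, was the most abundant in both libraries, at 2772 reads per kilobase in the control and 2257 scaled reads per kilobase in the CKO library. In the control library it was followed by Ltbr at 1131, Tnfrsf12a at 627, Tnfrsf1a at 546, and the ligand genes Tnfsf10 at 422 and Tnfsf12 at 348. The same 4 receptors led in the CKO library, where Tnfrsf12a came second at 2077 scaled reads per kilobase. All other members were lower in the control library, from Fas at 138 down to Tnfrsf8 at 1.46.

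The TNF and lymphotoxin receptors differed unequally. Tnfrsf1a encodes TNFR1, the widely expressed death domain receptor of TNF, and lies on chromosome 6 from 125349723 to 125362483 in GRCm38. It had 1177 control reads and 3178 CKO reads, and was 1.80-fold higher (95% interval 1.68 to 1.93) after scaling. Tnfrsf1b, on chromosome 4 from 145212368 to 145246870, encodes TNFR2, which lacks a death domain and binds TRAF2. It had 142 and 697 reads and was 3.27-fold higher (95% interval 2.73 to 3.95). Both receptor genes were thus higher in the CKO library, Tnfrsf1b by the larger fold. Shares of a pair of genes within a library involve no scaling, but they depend on the inferred floor and were not taken with another floor. Tnfrsf1b took 10.8% (95% interval 9.14 to 12.6%) of the reads of both genes in the control and 18.0% (95% interval 16.8 to 19.2%) in the CKO library, and these intervals did not overlap.

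Lta and Ltb encode lymphotoxin alpha and beta, which together form the membrane ligand of the lymphotoxin beta receptor, and lie near each other on chromosome 17. Ltb, from 35194507 to 35196305, had 29 control reads and 172 CKO reads, and was 3.95-fold higher (95% interval 2.66 to 6.08). Lta, from 35203165 to 35205578, had 4 and 16 reads, too few to give a direction, as the interval of its ratio ran from 0.860 to 11.0. Ltbr, the receptor gene, had 2384 and 3194 reads and was 1.12-fold lower (95% interval 1.06 to 1.18), a direction that turned with equal totals, where its log2 ratio was 0.26. Ltb thus stood higher in the CKO library, and its receptor had no direction that held under all scalings. As a share of the reads of Ltb and Ltbr together, Ltb made up 1.20% (95% interval 0.806 to 1.72%) in the control and 5.11% (95% interval 4.39 to 5.91%) in the CKO library. Tnfsf14 encodes LIGHT, a further ligand of this receptor, and had 11 and 21 reads, with an interval of the ratio from 0.587 to 2.92. Tnfrsf14, the gene of HVEM, which also binds LIGHT, had 132 and 297 reads.

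Tnfrsf12a was the most abundant member that was at least 2-fold higher. It encodes Fn14, the receptor of TWEAK, which is low in resting tissue and raised in injured epithelium, and it lies on chromosome 17 from 23675445 to 23677449. Reads numbered 617 in the control library and 3066 in the CKO library, which was 3.31-fold higher (95% interval 3.04 to 3.62) after scaling. Its ligand gene Tnfsf12 lies on chromosome 11 from 69686240 to 69696098. It had 500 and 901 reads and was 1.20-fold higher (95% interval 1.08 to 1.34). The receptor was thus far higher and the ligand only slightly higher in the CKO library. Of the reads of both genes, Tnfrsf12a held 55.2% (95% interval 52.3 to 58.2%) in the control library and 77.3% (95% interval 76.0 to 78.6%) in the CKO library. Among all receptor reads of the family its share was 4.06% in the control library and 12.3% in the CKO library, while that of Tnfrsf21 was 66.1% and 49.2%.

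**Figure D2:**
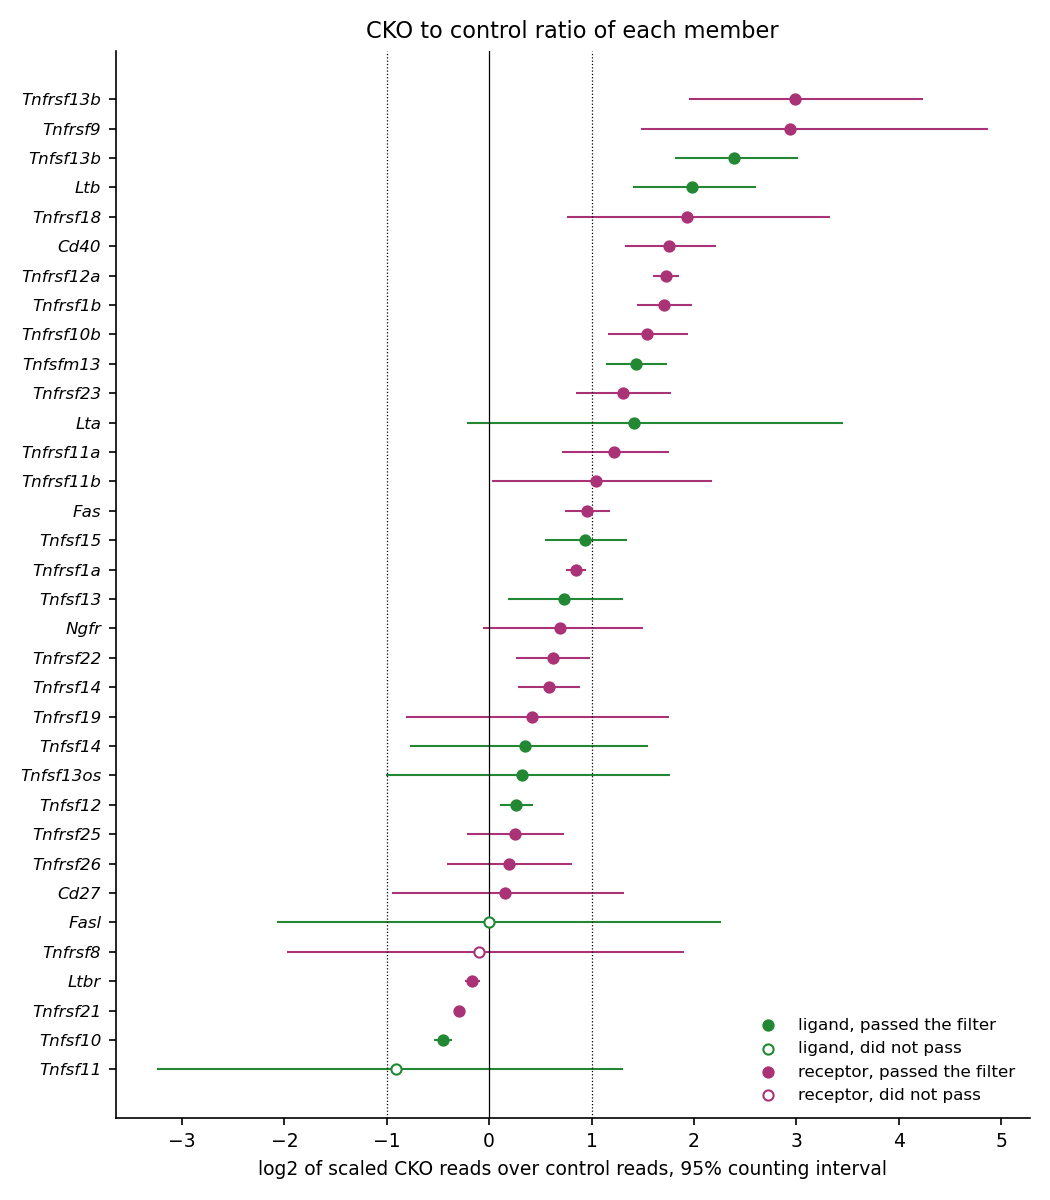
Ratio of scaled CKO reads to control reads for each of the 34 members on a log2 axis, without a pseudocount, with 95% Clopper-Pearson intervals as bars, and open circles for the 3 members that did not pass the filter. Dotted lines mark 2-fold, and the bars of Ltbr, Tnfrsf21 and Tnfsf10 lie wholly below 0 under the scaling used, but these 3 genes were above 0 with the values as deposited.

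The TRAIL genes lay on opposite sides of 0 under the scaling used. Tnfsf10 encodes TRAIL, a ligand that can trigger apoptosis, and was the most abundant ligand gene per kilobase in the control library. It lies on chromosome 3 from 27317077 to 27339665 and had 2108 control reads and 2318 CKO reads, which was 1.36-fold lower (95% interval 1.29 to 1.45) but reached a log2 ratio of 0.14 with the values as deposited. Tnfrsf10b, on chromosome 14 from 69767472 to 69784411, is the mouse death receptor for TRAIL. With 69 and 302 reads it was 2.92-fold higher (95% interval 2.24 to 3.85). The receptor also took a larger share of the reads of ligand and receptor, without scaling but after floor subtraction, from 3.17% (95% interval 2.47 to 3.99%) in the control to 11.5% (95% interval 10.3 to 12.8%) in the CKO library.

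Tnfrsf22 and Tnfrsf23 encode the decoys of the TRAIL system and lie beside Tnfrsf26 in a cluster of related genes on chromosome 7, so reads may be shared among the 3 and their values are uncertain. Tnfrsf23 had 51 control reads and 189 CKO reads and was 2.47-fold higher (95% interval 1.80 to 3.44). Tnfrsf22 had 92 and 212 reads and was 1.54-fold higher (95% interval 1.20 to 1.98). Tnfrsf26 had 38 and 65 reads. All 3 were higher in the CKO library, Tnfrsf26 within counting error. Tnfrsf11b encodes osteoprotegerin, a secreted decoy for both TRAIL and RANKL, and had 11 and 34 reads, which was 2.06-fold higher (95% interval 1.02 to 4.51) without a pseudocount, whereas its log2 ratio with a pseudocount of 1 was 0.98, just short of the 2-fold threshold.

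Tnfrsf11a, the gene of RANK, lies on chromosome 1 from 105780673 to 105849444. It had 41 control reads and 143 CKO reads, and was 2.33-fold higher (95% interval 1.63 to 3.38). Its ligand gene Tnfsf11, which encodes RANKL, had 5 and 4 reads and did not pass the filter. RANK was thus higher in the CKO library, while RANKL was too low in both libraries to give a direction. Osteoprotegerin had a share of the reads of Tnfrsf11b and Tnfrsf11a together of 21.2% (95% interval 11.1 to 34.7%) in the control and 19.2% (95% interval 13.7 to 25.8%) in the CKO library.

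The largest ratio of any ligand gene was that of Tnfsf13b, which encodes BAFF, a survival factor of B cells made largely by myeloid cells. It lies on chromosome 8 from 10006229 to 10036000 and had 28 control reads and 220 CKO reads, which was 5.24-fold higher (95% interval 3.53 to 8.07). Tnfrsf13b, which encodes TACI, a receptor of BAFF and APRIL, lies on chromosome 11 from 61126283 to 61153170. It had 8 and 95 reads and was 7.92-fold higher (95% interval 3.86 to 18.9), the largest log2 ratio among the members at 2.84, although with the values as deposited it was 1.76, below Tnfrsf12a, Tnfsf13b and Tnfrsf1b among others. Ligand and receptor were thus both higher in the CKO library, from few control reads. Tnfsf13, the gene of APRIL, had 39 and 97 reads and was 1.66-fold higher (95% interval 1.13 to 2.47), a smaller difference than that of BAFF. Within a library, Tnfsf13b gave 41.8% (95% interval 29.8 to 54.5%) of the reads of Tnfsf13b and Tnfsf13 in the control and 69.4% (95% interval 64.0 to 74.4%) in the CKO library.

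Reads at the Tnfsf12 and Tnfsf13 locus on chromosome 11 were divided among overlapping genes. Tnfsfm13, a readthrough gene that spans both from 69682577 to 69696098, had 120 control reads and 487 CKO reads and was 2.71-fold higher (95% interval 2.21 to 3.33). Tnfsf13os, a noncoding gene there, had 8 and 15 reads. How reads were shared among Tnfsf12, Tnfsf13, Tnfsfm13 and Tnfsf13os is not given in the sources used here, so the values of these 4 genes are uncertain. Without the rows of Tnfsfm13, Tnfsf13os, Tnfrsf22, Tnfrsf23 and Tnfrsf26, 11 of 29 members were at least 2-fold higher, beside 12.5% of 20002 genes. The median over all 29 was 0.85, and that of all 20002 genes was 0.0.

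Costimulatory receptors of lymphocytes and antigen-presenting cells had few reads in the control library. Cd40, the receptor gene on chromosome 2 from 165055614 to 165071654 through which T cells activate antigen-presenting cells, had 53 control reads and 269 CKO reads and was 3.38-fold higher (95% interval 2.51 to 4.63). Tnfrsf9, which encodes the T cell costimulator 4-1BB, had 4 and 46 reads. Tnfrsf18, which encodes GITR, found on regulatory and activated T cells, had 7 and 40 reads. These 3 were at least 2-fold higher in the CKO library, the latter 2 from fewer than 10 control reads, and the ligands of these 2 were not analysed here. Cd27, a costimulator of T and B cells, had 12 and 20 reads, and Tnfrsf8, the gene of CD30, had 5 and 7. Neither of the latter differed beyond counting error.

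Of the death domain receptors outside the TNF and TRAIL axes, only Fas had an interval above 1 under the scaling used. Fas, on chromosome 19 from 34290647 to 34327775, encodes the receptor of Fas ligand and had 224 control reads and 653 CKO reads, just under the 2-fold threshold after scaling. Fasl had 4 and 6 reads and did not pass the filter. Tnfrsf21 lies on chromosome 17 from 43016555 to 43089188. It had 10053 and 12280 reads and was 1.23-fold lower (95% interval 1.20 to 1.26), which turned to a log2 ratio of 0.12 with equal totals. Tnfrsf25, the death receptor 3 gene, had 61 and 109 reads, within counting error of the scaling, while Tnfsf15, which encodes its ligand TL1A, had 72 and 207 and an interval above 1. Ngfr encodes the neurotrophin receptor p75 and had 21 and 51 reads. Outside the death domain receptors, Tnfrsf19, also known as Troy, had 9 and 18. The intervals of Ngfr and Tnfrsf19 held 1.

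**Figure D3:**
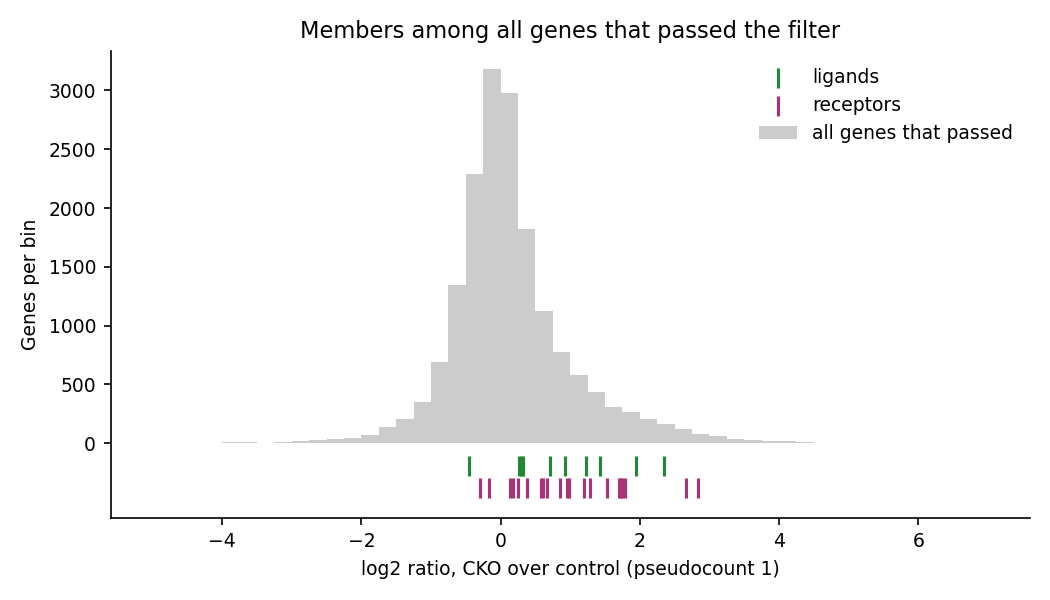
Distribution of log2 ratios (CKO over control, pseudocount 1) of the 17469 genes that passed the filter, as genes per bin, with 1 tick below the axis for each of the 10 ligands and 21 receptors that passed. The ticks run from -0.45 for Tnfsf10, which was above 0 with the values as deposited, to 2.84 for Tnfrsf13b.

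The members lie on 12 chromosomes. Chromosome 4 holds 7 members, all but Tnfsf15 receptors. There Tnfrsf1b and Tnfrsf8 are neighbours, with 697 and 7 reads in the CKO library. On chromosome 6, Cd27 from 125232620, Ltbr from 125306571 and Tnfrsf1a from 125349723 follow each other, and Tnfrsf1a was the only 1 of these 3 with an interval above 1 under the scaling used.

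Promoter sequences were searched because NF-κB is the best known transcription factor downstream of the family. RefSeq windows of 300 bases in GRCm38.p6, from 250 before to 50 after a start site, matched 27 of the 34 members. The motif GGNNTTTCC, part of the κB element, was sought on both strands. It occurred in 7.05% of the 13878 genes of the table with a window and in 8.36% of those at least 2-fold higher. Of the members it occurred in 4 of 27, namely Ltb, Tnfrsf9, Tnfrsf13b and Tnfrsf25, the first 3 of which were at least 2-fold higher. Tnfsf13b, Cd40, Tnfrsf1b and Tnfrsf12a had no match in the windows searched. The 4 stretches are shown 5′ to 3′ along the gene's strand, with the match in capitals (reverse complement of the motif except in Tnfrsf9), 87, 42, 60 and 218 bases before a RefSeq start site, which for Tnfrsf9, Tnfrsf13b and Tnfrsf25 lies inside the span of the gene and not at its first base. They lie at chr17:35194400-35194448, chr4:150927937-150927985, chr11:61126675-61126723 and chr4:152115696-152115744, each on the plus strand.
Ltb: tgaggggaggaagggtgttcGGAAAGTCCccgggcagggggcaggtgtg
Tnfrsf9: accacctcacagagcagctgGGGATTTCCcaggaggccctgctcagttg
Tnfrsf13b: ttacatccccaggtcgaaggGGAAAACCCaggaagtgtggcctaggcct
Tnfrsf25: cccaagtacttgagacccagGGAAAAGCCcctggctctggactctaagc
A match of letters is a description and does not show binding.

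Genes that act with the receptors were read from lists. Of 22 genes of receptor adaptors and the ubiquitin machinery around them, all passed the filter in both libraries, 3 were at least 2-fold higher and no gene was as far lower. The median log2 ratio of the list was 0.21. The 3 were Tnfaip3, Birc3 and Traf1, each a known NF-κB target that feeds back on receptor signalling. Tnfaip3, which encodes the ubiquitin-editing enzyme A20, was the highest, with 136 control reads and 1189 CKO reads, 5.83-fold higher (95% interval 4.88 to 7.01). Traf4 had the most reads, 2459 and 3809, and a log2 ratio of 0.05. Cradd, an adaptor with death and CARD domains, was the lowest with 449 and 473 reads and a log2 ratio of -0.51, though 0.11 without floor and scaling. The list as a whole was thus close to the 13.4% of all genes at least 2-fold higher, and few of its members stood apart.

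Of 11 genes in the death branch of the pathway, 2 (18.2%) were at least 2-fold higher, beside 13.4% of all genes, and the median log2 ratio was 0.24. Those were Mlkl and Ripk3, the executioner and the kinase of necroptosis. Mlkl had 33 control reads and 237 CKO reads and was 4.79-fold higher (95% interval 3.32 to 7.12), and Ripk3 had 31 and 201 and was 4.32-fold higher (95% interval 2.95 to 6.53). Both were thus higher in the CKO library, with intervals that start below 4-fold, and the ratios of the other 9 genes were within 2-fold. Cflar, which encodes the caspase-8 inhibitor c-FLIP and had the most reads, was at 5103 and 7272, a log2 ratio of -0.07 that turned to 0.34 with equal totals. Bid, which links caspase-8 to mitochondria, was the lowest with 2007 and 2092 reads and a log2 ratio of -0.52, or 0.07 with the values as deposited.

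Of 22 genes of kinases and NF-κB subunits, 5 (22.7%) were at least 2-fold higher, beside 13.4% of all genes, with a median log2 ratio of 0.06. Nfkbie, which encodes the NF-κB inhibitor IκBε, was the highest, with 140 control reads and 718 CKO reads, 3.42-fold higher (95% interval 2.85 to 4.13). Chuk, which encodes IKKα, had the most reads of the list and the lowest ratio, at 5555 and 5626 reads and a log2 ratio of -0.57, though 0.02 with the values as deposited. Nfkbie and Chuk were thus the ends of the list under the scaling used. Among 9 genes of ligand processing, 1 was at least 2-fold higher and the median log2 ratio was 0.24. It was Rhbdf2, which encodes iRhom2, the partner that brings the TNF sheddase ADAM17 to the cell surface, with 250 and 914 reads, 2.44-fold higher (95% interval 2.12 to 2.81). Timp3, an inhibitor of that sheddase, had the most reads and the lowest ratio, with 68104 and 66717 reads, 1.53-fold lower (95% interval 1.51 to 1.55), but its log2 ratio was -0.20 with equal totals and -0.03 without floor and scaling.

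Among superfamily genes whose symbols fall outside the rule, only Eda2r gave a larger ratio than any of the 34 members. Eda2r, which encodes the ectodysplasin A2 receptor XEDAR, a known p53 target, had 29 control reads and 600 CKO reads. It was 13.8-fold higher (95% interval 9.50 to 20.8), with a log2 ratio of 3.74. Edar, the receptor of the A1 form, had 30 and 43 reads, and its interval held 1. Eda itself, the ligand gene, had 42 and 146 reads, so ligand and XEDAR were higher in the CKO library and Edar was not distinguishable with so few reads. The median of these 3 genes was 1.19.

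**Figure D4:**
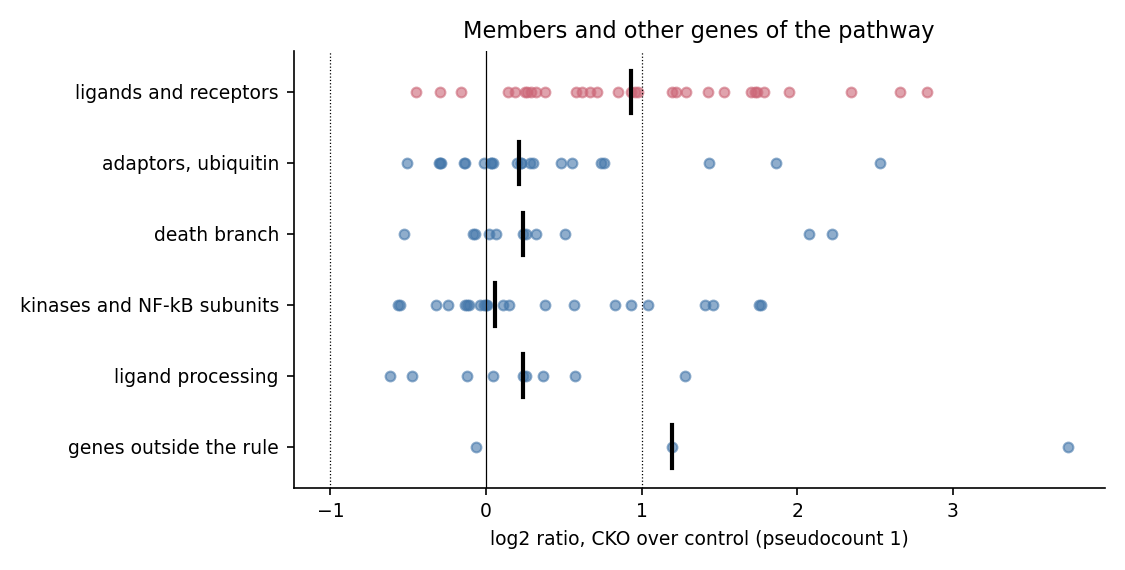
Log2 ratios (CKO over control, pseudocount 1) of the 31 members that passed the filter (red) and of the genes of 5 other lists of the pathway (blue), 1 point per gene, with the list median as a bar and dotted lines at 2-fold. The medians of adaptors, death branch, kinases and ligand processing lie between 0.06 and 0.24, and that of the members at 0.93.

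Chemokine ligands and receptors, a further family of inflammatory signals, had a larger share of genes at least 2-fold higher. Of 44 such genes in the table, 24 (54.5%) stood at least 2-fold higher in the CKO library, 2 stood as far lower, and the median log2 ratio of all 44 was 1.11. For TNF superfamily genes these values were 13 of 34 (38.2%), none and 0.78, and 12.5% of 20002 genes were at least 2-fold higher. The medians lay closer among genes with 10 scaled reads in both libraries, at 0.98 for chemokine genes and 0.85 for members. There 13 of 26 chemokine genes and 9 of 25 members were at least 2-fold higher, beside 10.7% of all genes. Of the 40 chemokine genes that passed the filter, 14 did so through 1 library only, and 17 were at least 4-fold apart. This held for 3 of 31 members, Tnfrsf13b, Tnfrsf9 and Tnfsf13b, and for 915 of 17469 genes (5.24%). Tnfrsf13b and Tnfrsf9 passed only through the CKO library, where they were high, as did some of the chemokine genes. The lowest log2 ratios of these 2 members over the scalings and floors tried were 1.76 and 1.31, below 4-fold. The difference between the families was not tested.

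Markers of cell types that carry these receptors and ligands also differed between the libraries, and their part in the results above was not tested. In whole kidney, more cells of a type and more RNA per cell cannot be told apart. Of 13 macrophage and monocyte markers, all 13 were higher in the CKO library and 11 at least 2-fold, with a median log2 ratio of 2.67. They summed to 4298 control reads and 29764 CKO reads, and Lyz2 had the most over both libraries, with 518 and 9836. Csf1r, a defining marker of the lineage and the one with most control reads, had 2244 and 4803 reads and was within 2-fold. Of 7 dendritic cell markers, 6 were at least 2-fold higher, and the list summed to 481 control reads and 1631 CKO reads, with most control reads in Zbtb46, the only 1 of the 7 within 2-fold, at 345 and 660.

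T cell markers summed to 91 control reads and 529 CKO reads, a fold of 3.88 after scaling. All 7 of the 9 listed genes that were analysed here were at least 2-fold higher, and Lck had the most reads, 28 and 160. Cd3d and Cd8b1 were not analysed here. The costimulator genes Tnfrsf9 and Tnfrsf18 had 4 and 7 control reads, beside 6 for Cd3e and 8 for Cd8a. Of B cell and plasma cell markers, 3 were analysed here, with summed reads of 80 and 137 and none at least 2-fold higher. Mzb1 had the most, 42 and 54. Under the scaling used, 2 of these 3 markers were above 0, 1 of them with an interval above 1. With equal totals all 3 were above 0, and 1 was at least 2-fold higher. Tnfrsf13b, a receptor known mainly from B cells, was higher in the CKO library, and its relation to these few markers was not tested. NK cell markers summed to 66 and 178 reads and went both ways under the scaling used, with 3 of 6 at least 2-fold higher. With the values as deposited all 6 were above 0, and 1 was at least 2-fold higher. Klrk1, which had the most reads over both libraries, was at 11 and 81, and Gzma and Ncr1 were at 18 and 14 and at 15 and 16, lower after scaling but within counting error. Of the neutrophil markers, 3 of 7 were analysed here, with 42 and 260 reads in sum, led by Csf3r, while Ly6g, Cxcr2, Retnlg and Mmp8 were not analysed here.

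Among resident cells, the 6 fibroblast and pericyte markers were all higher, 5 at least 2-fold, and summed to 5655 control reads and 27257 CKO reads, with Col3a1 the most abundant in the CKO library and Pdgfrb in the control. Proximal tubule markers summed to 626445 control reads and 506522 CKO reads, the most abundant being Slc27a2. Of these 10, 3 were at least 2-fold lower, against 0 with equal totals, and the median log2 ratio was -0.76, and became -0.35 when totals were made equal and -0.18 without floor and scaling. Slc5a12, with 25259 and 50338 reads, was the only one above 0 under the scaling used, and 2 and 4 of the 10 were above 0 under these alternatives. Thick limb and distal tubule, podocyte and endothelial markers had medians of -0.09, -0.11 and 0.0062, which were 0.33, 0.30 and 0.42 with equal totals, so these medians depended on the scaling. Their summed reads were 146605 and 264255, 8426 and 12034, and 12506 and 17449, with most reads over both libraries in Umod, Podxl and Kdr, although in the CKO library alone Pecam1 had more than Kdr. Of the 6 thick limb and distal tubule markers, 2 were above 0 and 4 below under the scaling used, 1 of the latter at least 2-fold lower. The sum of that list was 1.20-fold higher, and 1.61-fold higher with equal totals. Collecting duct markers had a median of 0.20 and sums of 13802 and 26912 reads, led by Aqp2. Tnfrsf21, Ltbr and Tnfsf10 were within 2-fold in the same libraries.

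**Figure D5:**
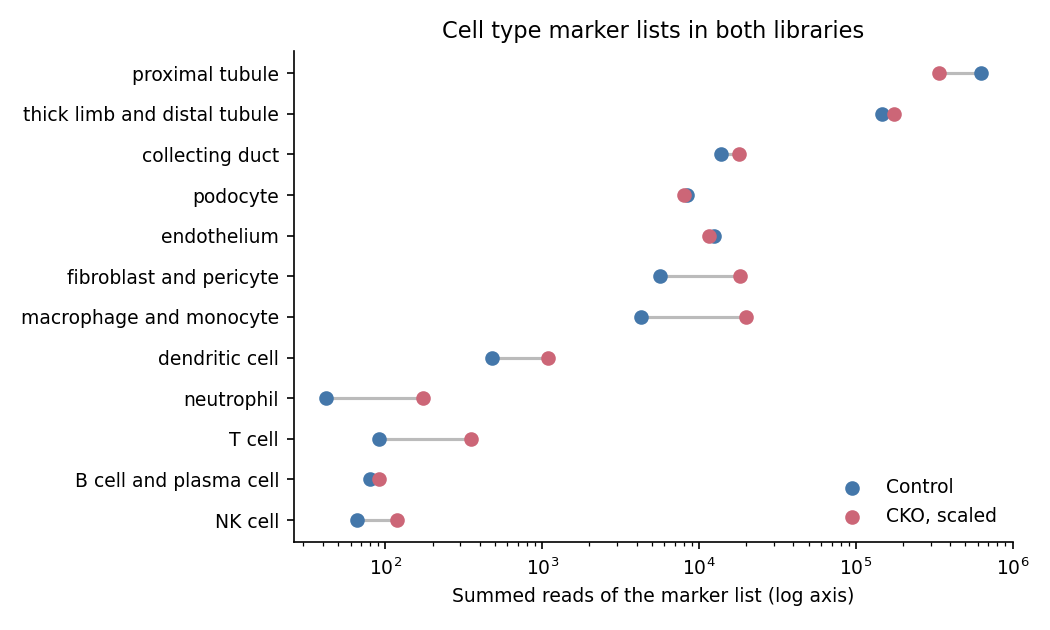
Summed reads of 12 cell type marker lists on a log axis, in the control library (blue) and in the CKO library after scaling (red). Macrophage, neutrophil, T cell, fibroblast, dendritic cell and NK cell sums are higher in the CKO library, the proximal tubule sum is lower, and the other sums differ by less than 1.5-fold.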

How the data were processed

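RNA-seq libraries were made with a stranded poly(A) kit. Per the submitters' processing notes and the methods, the authors aligned reads with STAR 2.7.3a to mm10, used HTSeq for counting and DESeq2 for normalization. The processing notes also name edgeR, and which tool made the deposited values was not determined here. FPKM made by the authors with Cufflinks 2.2.1 were not used here. The deposited values are a score, whole numbers called normalized counts, with minima of 35 and 51 in the control and CKO columns. The minimum minus 1 (34 and 50) was taken as a constant floor and subtracted, and the results were treated as reads, which is an inference from the values. Ratios were log2((scaled CKO + 1)/(control + 1)), with a filter of 10 scaled reads in 1 library and a threshold of 2-fold. Folds and intervals had no pseudocount, and no test was made. Folds are given for members at least 2-fold higher or lower with 50 or more reads in 1 library, the 5 members with most reads and their ligand or receptor partners, and for the highest, lowest and most read genes of other lists and those at least 4-fold apart. The marker genes Csf1r, Slc5a12, Cd3e, Cd8a, Gzma, Ncr1, Pdgfrb and Pecam1 were picked for naming after their values were seen, as was the promoter search. Of chemokine genes only counts and medians are given. Members and lists were chosen with earlier results of these data known. Gene positions and promoters came from RefSeq (GRCm38.p6), and transcript lengths from GENCODE M21. Alternatives were 3 other scalings, 2 other floors, pseudocounts of 0.1 and 10, other filters and thresholds of 1.5-fold and 4-fold, and, added after seeing the data, the members without 5 overlapping or closely related genes. The steps were tested on simulated data. Python 3.11.15, numpy 2.4.6, pandas 2.3.3, scipy 1.17.1 and matplotlib 3.10.9 were used.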

Additional observations from a re-analysis of the deposited data

How the results depend on the processing

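No paired analysis was possible because there was only 1 library in either group. The number of members at least 2-fold higher was 13 of 31, beside 13.4% of all genes, and 20 with equal library totals, beside 21.9%. It was 20 at a threshold of 1.5-fold, for which the share of all genes is not given here. At 4-fold it was 3, while 5.24% of all genes were at least 4-fold apart in either direction. The lower and higher thresholds change the number by their construction. Under the other alternatives it lay between 9 and 18, beside 10.4% to 20.5% of all genes. No member was at least 2-fold lower under any. The members' median log2 ratio lay between 0.64 and 1.35, but equal totals and the deposited values raise all genes. Its excess over the median of all genes was 0.91, and 0.47 with the deposited values. With equal library totals, which moved the median of all genes by 0.42, the medians of the adaptor and ligand processing lists were 0.63 and 0.66, and Tnfrsf21, Ltbr and Cflar reversed to 0.12, 0.26 and 0.34. Without floor and scaling, those medians were 0.79 and 0.81, Zc3h12b was at 0.42, and Tnfrsf21, Ltbr, Tnfsf10, Cradd, Bid, Cflar and Chuk reversed to 0.29, 0.42, 0.14, 0.11, 0.070, 0.51 and 0.022. All of these shifts go toward higher values, as the scales do, and their cause was not tested further. These alternatives were run on 38 genes, namely 21 members by the rule for folds, Zc3h12b, and the highest, lowest and most read genes of the other lists with those at least 4-fold apart outside the chemokines. Of their values, 38, that of Zc3h12b included, moved beyond the counting interval without being counted as reversed, and 218 did not. Without 5 member rows that overlap or resemble others, an alternative chosen after seeing the data, 11 of 29 members were at least 2-fold higher, beside 12.5% of 20002 genes. Low values limit Fasl, Tnfsf11 and Tnfrsf8, with 7 or fewer reads in each library.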
